A study of Mus musculus with 18 samples.

Results

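The kidney sets how much filtered calcium is lost in urine, and the last adjustment is made in the late distal convoluted tubule and the connecting tubule. Calcium enters these cells through the apical channels TRPV5 and TRPV6, crosses the cytosol bound to the calbindins encoded by Calb1 and S100g, and leaves across the basolateral membrane through the sodium-calcium exchanger encoded by Slc8a1 and the calcium pump encoded by Atp2b1. Calcitriol, the active form of vitamin D, acts through the vitamin D receptor (Vdr), is made in the proximal tubule by CYP27B1, and is broken down by CYP24A1. Calcitriol is known to raise Cyp24a1 and the calcium transport genes and to lower Cyp27b1.

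These 9 genes, of 78239 listed, were taken by symbol, and each was found once. All 9 passed the filter of at least 10 counts in every library compared. The lowest single count among them was 18, in Trpv6 and in Cyp27b1.

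Bulk RNA-seq counts came from 18 kidneys of wild-type, outbred CD-1 mice aged 6 wk, with 1 library per mouse from a piece of the left kidney. The mothers ate a low protein diet (LP, 8% protein) or a normal protein diet (NP, 18% protein) from mating until weaning, and all offspring then ate the 18% diet. Males numbered 5 for each diet, and females numbered 5 for LP and 3 for NP. Every mouse, controls included, had been injected with cationic ferritin, an iron-rich contrast agent, and the interval from the last injection to collection was 90 min in males and 24 h in females, so sex and collection time cannot be told apart. Diet was given to the mothers, and the labels tie no library to a litter. The authors' reply to reviewers gives fewer litters for the adult mice than the larger groups here have libraries. Littermates must therefore share each group of 5, although which mice they are is not known. All p-values treat the libraries as independent and take no account of litter. They compare these libraries and not mothers or litters.

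Library totals over genes lay between 14050486 and 23562411 counts. Proximal tubule markers, summed over 6 genes, lay between 7472 and 13032 CPM (counts scaled to a fixed library total) in every library, and each distal convoluted tubule marker was detected in every library. The 3 inner medulla genes varied more, from 138 CPM in NP male 3 to 785 CPM in LP female 3. Markers of neighbouring tissue were low in most libraries: the 4 fat genes summed to at most 141 CPM, in 1 NP female, and the 3 adrenal genes to at most 4.08 CPM. In clustering on 12665 genes, 3 females (LP females 1 and 2 and NP female 3) split first from the other 15 libraries. Their 5 glucocorticoid response genes summed to between 237 and 450 CPM, against 962 to 1271 CPM in the other females. Their 4 interferon response genes summed to between 50.5 and 71.6 CPM, against 309 to 1049 CPM. NP female 3 also had the fewest genes with a count, 20541, and the most reads not on 1 gene, 36.1%. Female values are therefore given with and without these 3 mice. Without them, LP females 3, 4, and 5 are set against NP females 1 and 2 only.

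The promoters of the vitamin D enzymes are shown first, because Cyp24a1 and Cyp27b1 break down and make the same hormone and ran opposite to each other among the males. Each stretch holds the 250 bases before the start of the gene's canonical transcript in GRCm39, 5′ to 3′ on the gene's own strand. Cyp24a1 lies at chr2:170339066-170339315 on the minus strand, and Cyp27b1 at chr10:126883869-126884118 on the plus strand. Capitals mark matches to a DR3 element, the type of site bound by the vitamin D receptor with its retinoid X receptor partner.
Cyp24a1: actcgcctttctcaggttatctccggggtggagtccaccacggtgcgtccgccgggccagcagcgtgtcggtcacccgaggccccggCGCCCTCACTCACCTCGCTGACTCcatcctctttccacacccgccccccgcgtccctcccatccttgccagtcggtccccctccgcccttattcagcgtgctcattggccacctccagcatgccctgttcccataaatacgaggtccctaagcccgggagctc
Cyp27b1: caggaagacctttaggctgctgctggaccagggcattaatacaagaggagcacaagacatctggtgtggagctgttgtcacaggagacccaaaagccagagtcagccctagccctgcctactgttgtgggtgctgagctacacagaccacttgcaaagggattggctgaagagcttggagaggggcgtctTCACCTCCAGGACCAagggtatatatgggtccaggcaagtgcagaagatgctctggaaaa

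The search took a pair of half-sites in the same orientation with NNN between them, each half-site being AGGTCA with G allowed at the first base, T at the third, and G at the fifth, on both strands. The capitals in Cyp24a1 cover a pair of overlapping matches on the strand opposite to the gene. The first, GAGTCAGCGAGGTGA, has 1 mismatch, and the second, AGGTGAGTGAGGGCG, has 2. At most 1 mismatch was found in 5.04% of 21770 promoters of this length, and among the 9 genes in Cyp24a1 alone. The Cyp27b1 match has 2 mismatches, as do 2 matches in Trpv6 and 1 in Vdr, and 42.0% of all promoters held a match at that level. The windows of Trpv5, Calb1, S100g, Slc8a1, and Atp2b1 held none, which says only that these letters are not within 250 bases of the start. A match is a description of sequence, and no binding was measured.

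Levels of different genes were compared as TPM, in which counts are divided by the merged exon length of the gene and scaled to a fixed library total. S100g, the small calbindin, was the most abundant member, with a median of 1461 TPM over the 18 libraries. Calb1 followed at 218 TPM and Vdr at 151 TPM. The lowest S100g level, 638 TPM, was above the highest Calb1 level, 452 TPM, whereas the ranges of Calb1 and Vdr overlapped. The other 6 genes were lower, with medians of 24.3 TPM for Slc8a1, 18.8 for Trpv5, 13.96 for Atp2b1, 8.42 for Cyp24a1, 7.57 for Cyp27b1, and 3.26 for Trpv6. Their ranges overlapped between neighbours in this order, and none reached the lowest Vdr level of 82.4 TPM.

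The genes also differed in how much they varied among mice. The highest library was 34.2 times the lowest for Cyp24a1, 12.5 times for Cyp27b1, and 10.97 times for Trpv6. The ratio was between 4.16 and 6.86 for Trpv5, S100g, Slc8a1, and Calb1. Vdr varied 2.00-fold and Atp2b1 1.63-fold, so the receptor and the pump were the steadiest members. The plot of normalized counts by library shows these spreads.

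**Figure D1:**
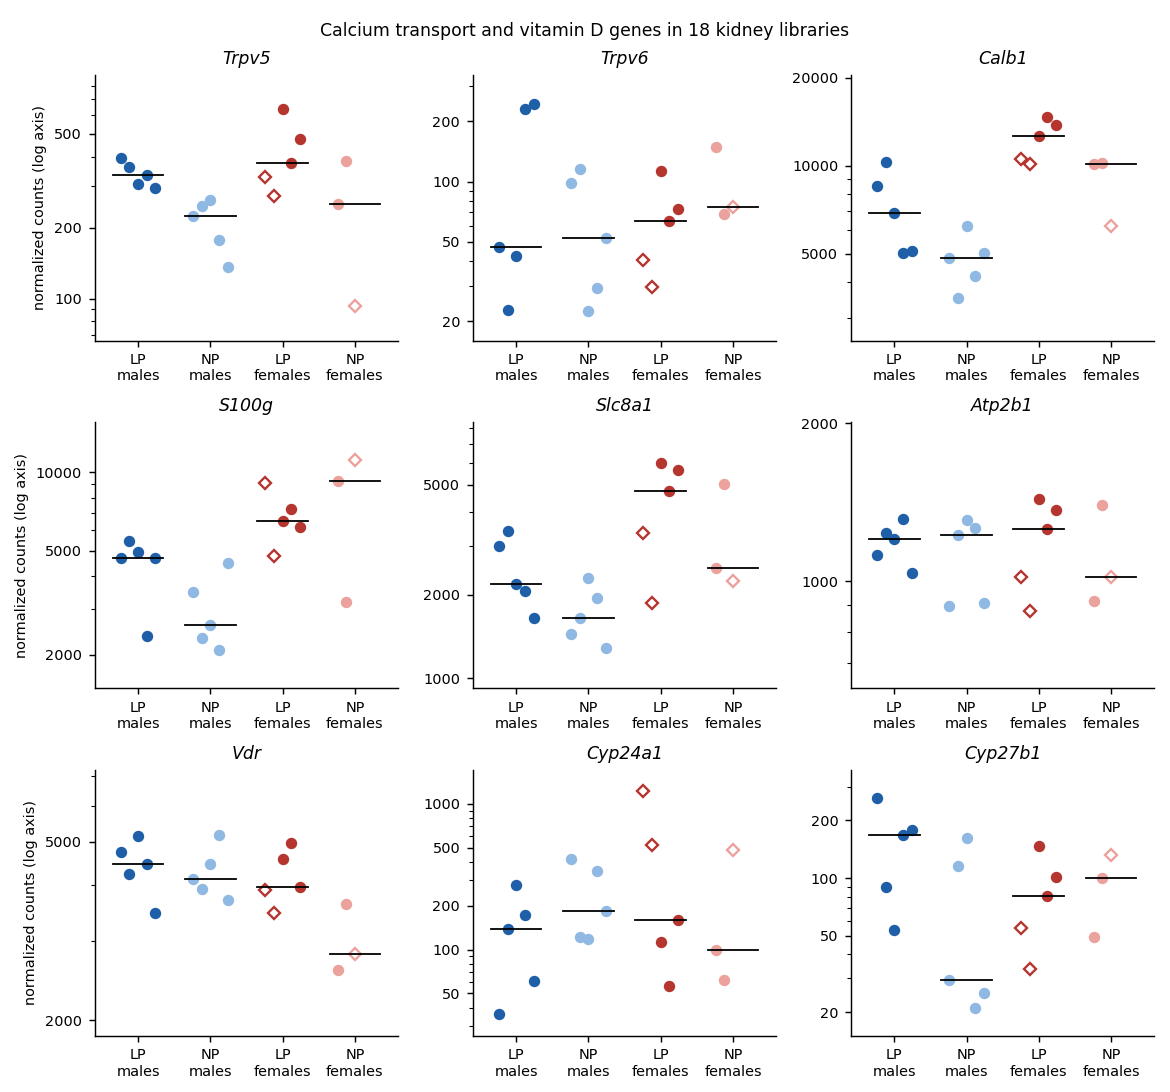
Normalized counts (log axis, counts divided by size factors) of the 9 genes in each library, by group; the horizontal line is the group median, and open diamonds are LP females 1 and 2 and NP female 3. Trpv5 in the 5 LP males lies above all 5 NP males (lowest LP value 295, highest NP value 261), and Cyp24a1 spans 35.9 to 1228.

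Maternal diet was compared within each sex, the question of the study being whether protein restriction before weaning leaves a mark on the adult kidney. In males, LP values of 8 of the 9 genes were on average above NP values and Cyp24a1 was below, but none of the 9 passed the test. A call here required an adjusted p under 0.05 in edgeR's quasi-likelihood test and a change of at least 1.5-fold, and 0.0379% of the 13181 genes tested were called (5 genes). At an unadjusted p under 0.05 there were 4 of 9 members, Trpv5, Calb1, S100g, and Slc8a1, all higher in LP males, against 3.84% of all genes in either direction and 2.22% higher. The members were chosen with earlier results of these data known, and the study had reported Trpv5 as higher in LP males. These shares are therefore no test of the set. All 6 distal convoluted tubule markers also had positive log2 fold changes in males (median 0.25), with none called. The median log2 fold change was -0.0039 over all genes tested.

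Trpv5, the channel for apical calcium entry, separated the male diet groups. It lies at chr6:41629107-41657703 on the minus strand. LP males had 394, 360, 305, 333, and 295 normalized counts, and NP males had 223, 247, 261, 178, and 136. The lowest LP male exceeded the highest NP male, with means of 337 ± 40.6 (SD, n = 5) and 209 ± 51.4 (SD, n = 5). The log2 fold change was 0.70 ± 0.17 (SE), a 1.63-fold difference that ranked 22 of 13181 genes by p (edgeR adjusted p = 0.890). An exact two-sided permutation test gave p = 0.00794, the smallest that 5 against 5 libraries allow, among 36 such tests of the members. Groups that do not overlap were found for 0.713% of all genes, and for 0.258% with LP higher. Leaving out each library in turn kept the log2 fold change between 0.58 and 0.79, and DESeq2 gave an adjusted p of 0.0763.

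The genes downstream of entry overlapped between the male diet groups. Calb1, on chr4:15881155-15908085 (plus strand), had 8505, 10269, 6909, 5012, and 5100 normalized counts in LP males and 4825, 3524, 6231, 4174, and 5025 in NP males. Its upper 3 LP values were above every NP value, and the lower 2 were within the NP range. Its log2 fold change of 0.60 ± 0.21 (SE) had an edgeR adjusted p of 1.00.
S100g, on chrX:161744988-161747617 (minus strand), had 4686, 5445, 4940, 2360, and 4703 normalized counts in LP males and 3462, 2307, 2603, 2081, and 4492 in NP males. In 4 of 5 LP males it was above every NP male, while LP male 4 was within the NP range. The log2 fold change was 0.58 ± 0.24 (SE; edgeR adjusted p = 1.00). Slc8a1, on chr17:81680534-82045891 (minus strand), ranged from 1645 to 3409 in LP males and from 1291 to 2295 in NP males, with a log2 fold change of 0.52 ± 0.21 (SE; edgeR adjusted p = 1.00). Exact permutation p-values of these 3 genes lay between 0.0556 and 0.0873.

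Atp2b1, the basolateral pump on chr10:98750268-98862488 (plus strand), was close between the male diet groups, with 1183 ± 106 (SD, n = 5) normalized counts under LP and 1122 ± 202 (SD, n = 5) under NP and a log2 fold change of 0.09 ± 0.13 (SE). Vdr, on chr15:97752306-97808511 (minus strand), had means of 4407 ± 629 (SD, n = 5) and 4275 ± 571 (SD, n = 5), a log2 fold change of 0.06 ± 0.12 (SE). Atp2b1 and Vdr overlapped between the diets, although NP males 1 and 5 had less Atp2b1 (900 and 908) than any LP male and LP male 5 had less Vdr (3462) than any NP male. Trpv6, the neighbour of Trpv5 on chr6:41597558-41613343 (minus strand), had 47.1, 22.8, 42.3, 231, and 245 normalized counts in LP males and 97.9, 116, 22.4, 29.3, and 52.4 in NP males. LP males 4 and 5 were above every other library of any group, and the other 3 were within the NP range, so the log2 fold change of 0.92 carried an SE of 0.66. LP males 4 and 5 also had the highest inner medulla marker sums of any male, 365 and 486 CPM. The part of these markers in the Trpv6 values was not tested.

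**Figure D2:**
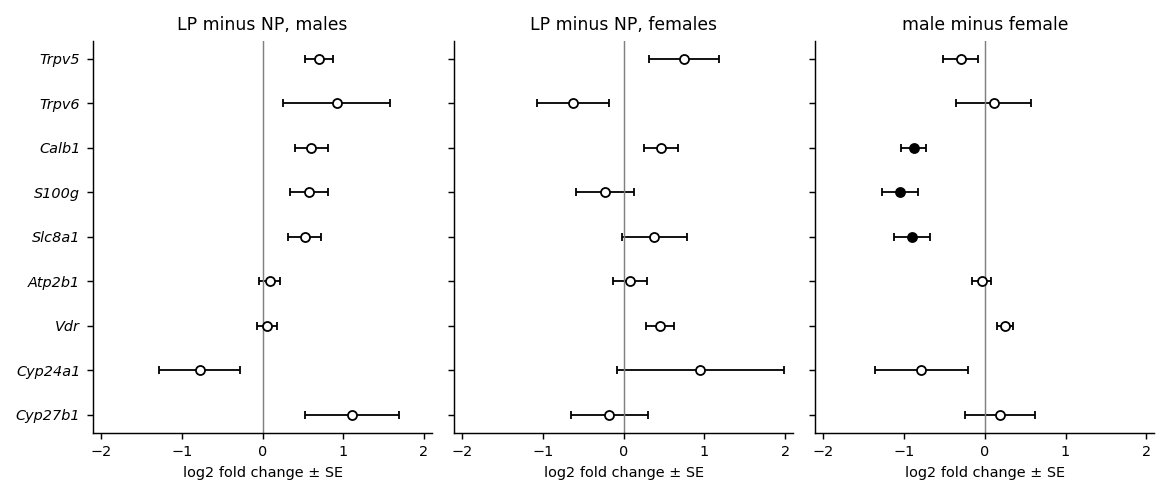
Log2 fold change (point) with its SE (bar) from edgeR for the 9 genes in the diet comparison of each sex and in males against females; filled points are called. No gene is called for diet, and Calb1 (-0.88), S100g (-1.05), and Slc8a1 (-0.90) are called as lower in males.

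The vitamin D enzymes varied more within diets than between them. Cyp27b1, which makes calcitriol and lies at chr10:126884119-126888875 (plus strand), had 263, 89.9, 53.8, 168, and 178 normalized counts in LP males and 29.4, 115, 161, 21.1, and 25.2 in NP males. The NP males fell into 3 low and 2 high values, and the groups overlapped (log2 fold change 1.104 ± 0.58 (SE); edgeR adjusted p = 1.00). Cyp24a1, on chr2:170324628-170339065 (minus strand), had 35.9, 139, 277, 173, and 60.9 in LP males and 419, 122, 117, 349, and 185 in NP males. The 2 lowest values were LP and the 2 highest NP, with the other 6 mixed (log2 fold change -0.78 ± 0.50 (SE); edgeR adjusted p = 1.00).

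Across single mice, these enzymes ran opposite to each other in males. LP male 1 had the highest Cyp27b1 of all 18 libraries, 263, and the lowest Cyp24a1, 35.9. NP males 1, 4, and 5, with Cyp27b1 between 21.1 and 29.4, had Cyp24a1 between 185 and 419. After the mean of each group was removed from log2(CPM + 1), Pearson's r was -0.80 over the 10 males, -0.33 over the 8 females, and -0.51 over all 18. These r values are descriptions over libraries that also differ in depth and in RNA balance. The plot of Cyp24a1 against Cyp27b1 shows each mouse.

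**Figure D3:**
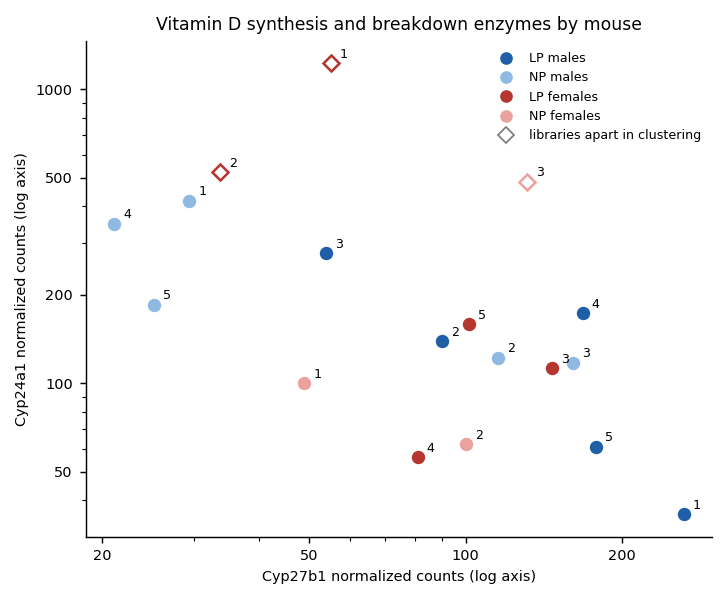
Cyp24a1 against Cyp27b1 in normalized counts (log axes), 1 point per mouse, colored by group and numbered by replicate; open diamonds are the 3 females that cluster apart. The males run from high Cyp24a1 with low Cyp27b1 (NP male 4, 349 and 21.1) to the reverse (LP male 1, 35.9 and 263), and LP females 1 and 2 and NP female 3 hold the highest Cyp24a1 of the females.

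In females, no member passed the test for diet, and neither did any of the 13510 genes tested (0%, edgeR); 1 of 9 members and 4.17% of all genes had an unadjusted p under 0.05. DESeq2 called 9 genes, none of them a member. That member was Vdr. LP females had 3900, 3458, 4575, 4959, and 3959 normalized counts, and NP females had 2584, 3628, and 2809. In 4 of 5 LP females Vdr was above every NP female (log2 fold change 0.45 ± 0.17 (SE); edgeR adjusted p = 0.886). It was 0.51 without the 3 apart libraries. The exact permutation p was 0.0714, and 5 against 3 libraries cannot go below 0.0357 in this two-sided test.

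The log2 fold change of Trpv5 in females was 0.75 ± 0.43 (SE), a wider error than in males (edgeR adjusted p = 0.886). LP females had 326, 271, 636, 377, and 474 normalized counts, and NP females had 253, 383, and 92.8. The groups overlapped, and the lowest value was NP female 3, a library that clustered apart. Without the 3 apart libraries the log2 fold change was 0.62, and with single libraries left out it lay between 0.38 and 1.26.
Calb1 had a log2 fold change of 0.46 ± 0.21 (SE; edgeR adjusted p = 0.886). Its values were 10531, 10142, 12589, 14651, and 13813 normalized counts in LP females and 10131, 10177, and 6211 in NP females, and 4 of 5 LP females were above every NP female. Without the 3 apart libraries the log2 fold change was 0.41.

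The other members showed no common direction in females. The log2 fold changes were -0.63 ± 0.44 (SE) for Trpv6, -0.23 ± 0.36 for S100g, 0.38 ± 0.40 for Slc8a1, 0.08 ± 0.21 for Atp2b1, and -0.18 ± 0.48 for Cyp27b1. Without the 3 apart libraries they were -0.42 for Trpv6, 0.063 for S100g, 0.51 for Slc8a1, 0.20 for Atp2b1, and 0.54 for Cyp27b1, so S100g and Cyp27b1 turned. Cyp24a1 had the widest error, 0.95 ± 1.03 (SE), with 1228, 524, 112, 56.0, and 159 normalized counts in LP females and 99.9, 62.0, and 485 in NP females. Its 3 highest female values were those of the 3 apart libraries, 485 to 1228 against 56.0 to 159 in the other 5 females. Whether the state of those kidneys bears on Cyp24a1 was not tested. Without them the log2 fold change was 0.42.

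The diet effect was compared between the sexes as an interaction over the 4 groups. None of the 9 members passed, against 0.0158% of 12665 genes (2 genes, edgeR), and no member had an unadjusted p under 0.05, against 4.02% of all genes. The widest differences in effect, female minus male, were 1.72 ± 1.18 (SE) for Cyp24a1, -1.55 ± 0.91 for Trpv6, and -1.30 ± 0.85 for Cyp27b1 on the log2 scale, each with an edgeR adjusted p of 0.977. They were 1.19, -1.34, and -0.58 without the 3 apart females, and again no member passed. The Trpv5 difference was 0.05 ± 0.44 (SE).

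Males were then compared with females, with sex and collection time moving together. Calb1, S100g, and Slc8a1 were lower in males, the calbindins by 1.84-fold and 2.07-fold and the exchanger by 1.86-fold. The 3 of 9 members called compare with 18.7% of 12665 genes called in either direction and 11.5% called as lower in males. The log2 fold changes were -0.88 ± 0.15 (SE) for Calb1 (edgeR adjusted p = 0.000252), -1.05 ± 0.23 for S100g (adjusted p = 0.00146), and -0.90 ± 0.22 for Slc8a1 (adjusted p = 0.00391).

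The male ranges sat low but overlapped the female ranges in all 3 genes. Calb1 lay between 3524 and 10269 normalized counts in males and between 6211 and 14651 in females. Slc8a1 lay between 1291 and 3409 in males and between 1866 and 6007 in females. S100g lay between 2081 and 5445 in males and between 3169 and 11128 in females, where LP females had 9098, 4787, 6526, 7203, and 6177 and NP females 9292, 3169, and 11128. These calls held with each library left out in turn and without the 3 apart females, where the log2 fold changes were -1.055 for Calb1, -0.86 for S100g, and -1.18 for Slc8a1. Between the NP groups alone all 3 were called, and between the LP groups alone Calb1 was (log2 fold change -0.80, edgeR adjusted p = 0.0181), with S100g at -0.63 (adjusted p = 0.0684) and Slc8a1 at -0.82 (adjusted p = 0.0732).

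The other 6 members were not called between the sexes. Trpv5 was at -0.30 ± 0.22 (SE; edgeR adjusted p = 0.295). Without the 3 apart females it was at -0.62 and was called (edgeR adjusted p = 0.00681), making 4 of 9 members. Vdr was at 0.25 ± 0.10 (SE; edgeR adjusted p = 0.0509). The mean log2 difference of Vdr was 0.51 between the NP groups (exact permutation p = 0.0357, the smallest that 5 against 3 libraries allow). It was 0.08 between the LP groups (exact permutation p = 0.556). Atp2b1 was at -0.04 ± 0.12 (SE), Trpv6 at 0.11 ± 0.46, Cyp27b1 at 0.19 ± 0.43, and Cyp24a1 at -0.79 ± 0.57. The Cyp24a1 value turned to 0.90 without the 3 apart females (edgeR adjusted p = 0.131), and Trpv6 to -0.16, while Vdr was at 0.18, Atp2b1 at -0.16, and Cyp27b1 at 0.15.

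Markers of the distal segments, the thick ascending limb, and podocytes were also mostly lower in males, unlike those of the proximal tubule. Of the 6 distal convoluted tubule markers, 5 were lower in males with a median log2 fold change of -0.80, as were 6 of 8 tested markers of connecting tubule and principal cells (-0.69), 5 of 6 of intercalated cells (-0.74), 4 of 6 of the thick ascending limb (-0.68), and 3 of 3 of podocytes (-1.10). None of 6 proximal tubule markers was called (0.03), and 3 of the 6 had positive values. Slc34a1 (0.42, edgeR adjusted p = 0.00555) and Hnf4a (0.34, edgeR adjusted p = 0.00326) were higher in males but below the 1.5-fold limit. The median over all genes was -0.05. The summed distal convoluted tubule markers ranged from 599 to 880 CPM in LP males and from 465.7 to 659 in NP males, below every female at 998 to 1627 in LP and 1086 to 1271 in NP, and no marker of the 6 was at 0. In bulk tissue, fewer distal cells and less RNA per distal cell cannot be told apart. These sums are also shares of a library total, so they do not measure the amount of distal RNA in a kidney.

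Expressed per 100 counts of these markers, a scaling chosen after the data were seen, no male-female gap of the called members passed an exact permutation test. The mean log2 difference between NP males and NP females was -0.03 for Calb1, -0.42 for S100g, and 0.00 for Slc8a1, with exact permutation p-values from 0.500 to 1.00. Between LP males and LP females it was -0.02, 0.17, and 0.07, with exact permutation p-values from 0.421 to 0.897. Without the scaling, exact permutation p-values between the NP groups were 0.0714 for Calb1, 0.107 for S100g, and 0.0714 for Slc8a1. Between the LP groups they were 0.0159, 0.0238, and 0.0873, so only Calb1 and S100g in LP mice were under 0.05 before scaling. For Trpv5 the same scaling put LP males above LP females by 0.56 (exact permutation p = 0.0317), the reverse of the direction in plain counts.

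**Figure D4:**
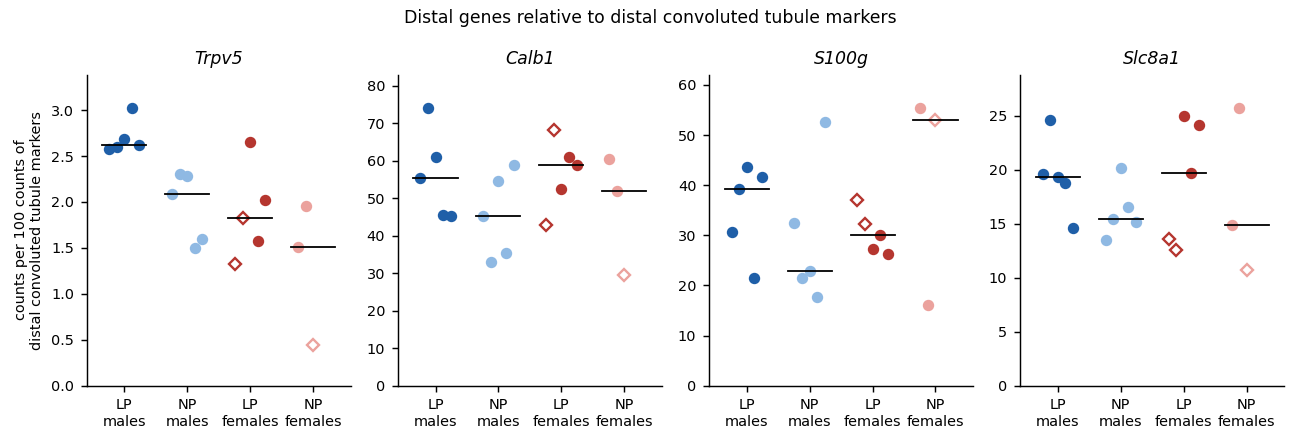
Counts of 4 distal genes per 100 summed counts of 6 distal convoluted tubule markers in the same library, by group; lines are medians and open diamonds the 3 females that cluster apart. Trpv5 in LP males (2.57 to 3.02) lies above all NP males (1.504 to 2.31), while Calb1, S100g, and Slc8a1 overlap among all 4 groups.

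The Trpv5 difference between male diet groups was smaller on this scale. The groups, already known not to overlap in normalized counts, still did not. The share of all genes without overlap on this scale was not computed. LP males had between 2.57 and 3.02 Trpv5 counts per 100 marker counts and NP males between 1.504 and 2.31, a mean log2 difference of 0.49 against 0.72 for normalized counts (exact permutation p = 0.00794, again the smallest possible and so no measure of size, among 16 such tests). The differences of Calb1, S100g, and Slc8a1 were 0.32, 0.33, and 0.26, with exact permutation p-values of 0.143, 0.373, and 0.135. Male marker sums themselves overlapped between the diets, and none of the 6 markers was called for diet (median log2 fold change 0.25). Of the other marker lists, the 3 stroma genes had a median of 0.70 between male diets, the 3 podocyte genes 0.26, and the 4 interferon response genes -0.36, with none called, and their part in the member values was not tested.

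Part of the variation of these genes ran with the balance of short and long transcripts in a library. Its part in the results was not tested beyond the fits given here. For each library, the median log2 deviation of 279 genes with under 1000 exon bases minus that of 8068 genes with over 5000 ranged from -0.37 in LP male 4 to 0.75 in NP female 3. S100g, with 669 exon bases, had r = 0.88 with this balance over 18 libraries after group means were removed, and Atp2b1, with 16593, had r = -0.83. Trpv5 had r = -0.82 at 3243 bases, and Calb1 r = -0.24 at 7086. With the balance as a covariate, added after the data were seen, the Trpv5 log2 fold change in males was 0.67 (edgeR adjusted p = 0.354) and that of S100g 0.71 (adjusted p = 0.110). In females the S100g value turned from -0.23 to 0.38, while Trpv5 went from 0.75 to 0.37, Slc8a1 from 0.38 to 0.052, and Atp2b1 from 0.08 to -0.10. The sex calls of Calb1, S100g, and Slc8a1 held, with S100g at -0.70.

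**Figure D5:**
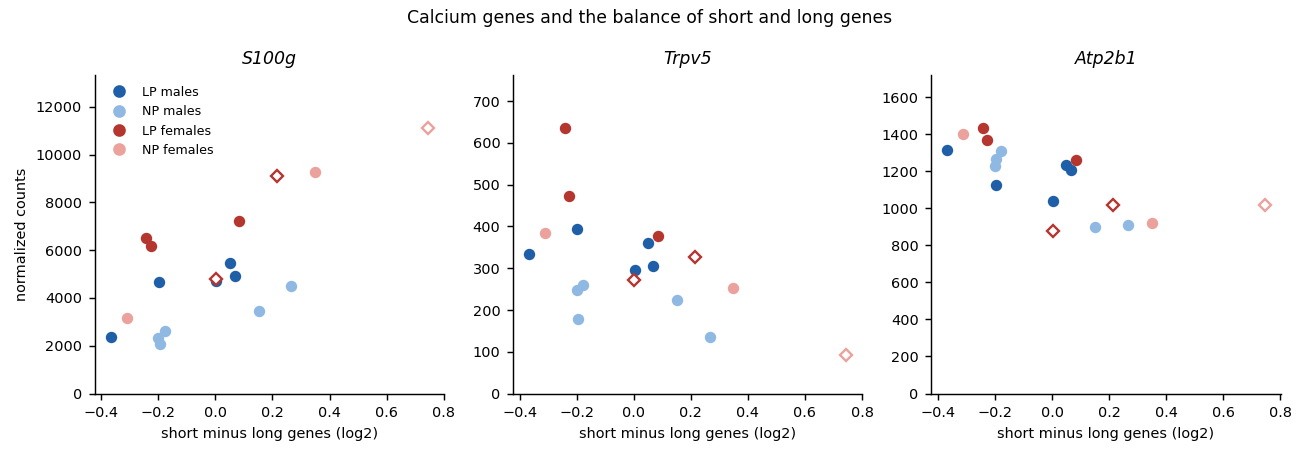
Normalized counts of S100g, Trpv5, and Atp2b1 in each library against the balance of short over long genes (log2, higher means relatively more short transcripts); open diamonds are the 3 females that cluster apart. S100g rises with the balance (r = 0.88 after group means were removed), whereas Trpv5 (-0.82) and Atp2b1 (-0.83) fall.

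Genes that work beside the members were read from 6 lists holding 66 genes. None was called for diet in males, in females, or in the interaction. Of all genes, edgeR called 18.7% between the sexes in either direction and 11.5% as lower in males. Of the partner genes, 10 of 58 tested were called, a share of 17.2%, and all 10 were lower in males. Among 14 channel partners and regulators they were Klk1 (log2 fold change -0.88, adjusted p = 0.000129), the secreted kallikrein that stabilizes TRPV5 at the membrane, and the kinases Wnk4 (-0.79, adjusted p = 2.75e-05) and Sgk1 (-1.83, adjusted p = 5.81e-05).
Of 7 other calcium carriers tested, the endoplasmic reticulum release channels Itpr2 (-1.02) and Itpr3 (-0.86) were called, and of 8 hormone receptor genes Adcy6 (-0.61), an adenylyl cyclase. Among 6 claudins it was Cldn16 (-0.74), which forms the paracellular calcium and magnesium path of the thick ascending limb, and among 10 distal magnesium genes the channel Trpm6 (-0.74) and the transporter Slc41a3 (-0.79).

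Vitamin D handling gave 1 call among 13 tested genes. Gc, the plasma carrier protein of vitamin D, had 272 ± 205 (SD, n = 5) normalized counts in males on LP and 133 ± 44.2 (SD, n = 5) on NP. In females it had 1503 ± 474 (SD, n = 5) on LP and 997 ± 425 (SD, n = 3) on NP. The highest male, an LP mouse at 614, reached the lowest female, an NP mouse at 613, and the log2 fold change was -2.73 (edgeR adjusted p = 2.91e-06). The median over the 13 genes was 0.04, near that of all genes.

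Reads could be shared at some members, since the library did not keep strand. Trpv6 shares 1112 exon bases, 28.2% of its own, with Ephb6 on the opposite strand in GENCODE vM39. Reads there cannot be told apart by strand. Even so, its unstranded and by-strand counts were equal, at 1616 over the 18 libraries, so 0% of its reads were set aside. Cyp24a1 shares 83 exon bases with Pfdn4, and 6.14% of the reads counted for it by strand were set aside in the unstranded column. For Slc8a1 this share was 3.57%, and for the other members at most 0.0306%. Trpv5 and Trpv6 are related in sequence, so their counts, above all the low ones of Trpv6, carry that uncertainty.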

How the data were processed

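RNA from a piece of the left kidney of 18 mice was sequenced after poly(A) selection, without strand. As deposited, the files hold unnormalized counts per gene. The authors aligned trimmed reads to GRCm39 (GENCODE vM36) with STAR and discarded samples of low RNA integrity. The counts taken without regard to strand were used, with 14050486 to 23562411 per library, and reads not on 1 gene were left out. The 9 members, the partner lists, and the marker lists were chosen with earlier results of these data known.

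Groups followed the labels. LP and NP were compared within each sex, with an interaction, and males with females, by edgeR 4.0.16 (R 4.3.3; quasi-likelihood test, TMM) with Benjamini-Hochberg adjustment over all genes that reached 10 counts in each library of the fit. SEs are the log2 fold change divided by the square root of F. Calls needed an adjusted p under 0.05 and a 1.5-fold change (the adjusted p alone for the interaction). Normalized counts are counts over DESeq2 1.42.0 size factors, and single members were also compared by exact two-sided permutation on log2(normalized count + 1). TPM and overlaps used GENCODE vM39 exons. Named genes are the members, partner genes called in any comparison (at most the 8 of smallest adjusted p in each), and the 3 genes most like each member, of which 1 is not reported here.

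Alternatives were no filter, filterByExpr, mean counts of 10 or more, size factors of DESeq2, the DESeq2 Wald test, limma 3.58.1 voom with quality weights, a replicate block, all 4 groups in 1 model, the adjusted p alone, 1 diet only, the 3 apart females left out, and each library left out. The edgeR code was tested on simulated counts. Counting error is smallest for the abundant genes, and a p that misses the limit does not show that groups are alike.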

Additional observations from a re-analysis of the deposited data

Results flagged for a closer look

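S100g in LP male 4 had 2360 normalized counts, apart from the other 4 LP males at 4686 to 5445, a gap that passed Dixon's test for a lone low value. It was the single flag among 27 gene and group pairs tested, and chance flags about 1 group in 20. The same library had the lowest balance of short over long genes, -0.37. The part of that balance in the low value was not tested.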

How the results depend on the processing

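Over 1056 alternative values, 956 kept their direction and their side of the threshold. No member was called for diet or for the interaction under any alternative run. Of 90 alternative values of the called members (Calb1, S100g, and Slc8a1 between the sexes), none turned and 2 lost the call, both in LP mice alone, which left 1 member called. All 55 values that turned belonged to members that were not called, and the cause of each move below was not tested. Depth limits Trpv6 and Cyp27b1 most, with as few as 18 counts.

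The number of genes called between male diets was 9 with no filter, 15 with DESeq2, 3 with the length balance as a covariate, 1 with all 4 groups in 1 model, and 2 to 6 with single libraries left out. Between female diets it was 3, 9, 2 with all 4 groups, 1 without the 3 apart females, and 0 to 2 (2 without NP female 2). For the interaction it was 5 with DESeq2, 7 with voom, 0 with the length balance, 0 without the 3 apart females, and 0 to 4. Between the sexes it was 4900 on the adjusted p alone.

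Replicate numbers did not pair the mice: the median correlation of same-numbered libraries' deviations was -0.155 between male diet groups and -0.438 between female ones. With the number as a replicate block, 2 genes were called for diet in males, 0 in the interaction, and 2249 between the sexes, with Atp2b1 at -0.021 in females and Trpv6 at -0.10 between the sexes, and no member changed its call.

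Values that turned, on the log2 scale, were these. With voom, male diet gave Atp2b1 -0.028 and Vdr -0.077, female diet Cyp27b1 0.57, the interaction Slc8a1 0.49 and Atp2b1 0.40, and sex Trpv6 -0.67, Atp2b1 0.031, and Cyp24a1 0.13. With the length balance, female diet gave S100g 0.38 and Atp2b1 -0.10, the interaction Trpv5 -0.18, and sex Trpv6 -0.017, Cyp24a1 0.10, and Cyp27b1 -0.13. Without the 3 apart females, female diet gave S100g 0.063 and Cyp27b1 0.54, the interaction Trpv5 -0.10 and Atp2b1 0.10, and sex Trpv6 -0.16 and Cyp24a1 0.90. In NP mice alone, sex gave Trpv6 -0.66, Cyp24a1 0.090, and Cyp27b1 -0.45. The Atp2b1 interaction was 0.024 with no filter, 0.014 with filterByExpr, 0.011 with a mean count, 0.00040 with DESeq2 size factors, and 0.00020 with DESeq2, and its sex value 0.013 with no filter.

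With single libraries left out, female diet values ranged from -0.014 to 2.37 for Cyp24a1, -0.48 to 0.15 for Cyp27b1, -0.029 to 0.30 for Atp2b1, and -0.60 to 0.10 for S100g. Interaction values ranged from -0.34 to 0.016 for Calb1, -0.14 to 0.18 for Atp2b1, -0.35 to 0.30 for Slc8a1, and -0.34 to 0.53 for Trpv5. Sex values ranged from -0.12 to 0.33 for Trpv6, -0.10 to 0.34 for Cyp27b1, and -0.10 to 0.057 for Atp2b1.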

Other observations

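The genes most like each member over the 18 libraries, by Pearson's r of log2(CPM + 1) after group means were removed, differed from member to member. Slc8a1 was nearest to Kl (r = 0.93), the co-receptor Klotho of the distal tubule, followed by Igsf11 (0.92) and Cnnm2 (0.92), a magnesium handling gene of the same segment. Atp2b1 was nearest to Atp13a3 (0.95), Slc4a4 (0.95), the bicarbonate exporter of the proximal tubule, and Dnajc13 (0.95). Trpv5 was nearest to Dnajb9 (0.93), Cemip2 (0.92), and Plekha2 (0.91), and Trpv6 to Cd24a (0.92), Mal2 (0.90), and Ptk7 (0.89). For Calb1 they were Pbx3 (0.80), Arhgef26 (0.79), and Sugp1 (0.75), and for S100g Scand1 (0.92), Gpx1 (0.92), and Ndufb9 (0.92). Vdr was nearest to D630045J12Rik (0.86), Dhtkd1 (0.84), and Cluh (0.81), Cyp24a1 to Lmo4 (0.93), Fignl2 (0.92), and Nrbp1 (0.91), and Cyp27b1 to Acsf2 (0.78) and Cnnm3 (0.76). These are descriptions over libraries that share depth and RNA balance.

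The members did not move as 1 block among mice. By the same measure Slc8a1 and Atp2b1, the exit steps, had r = 0.80 over 18 libraries, and Trpv5 and Slc8a1 had r = 0.73. With the balance of short and long transcripts, r was -0.65 for Slc8a1, -0.83 for Atp2b1, -0.82 for Trpv5, and 0.88 for S100g. The part of that balance in the r values between members was not tested. The calbindins Calb1 and S100g had r = 0.47 over the 10 males and -0.49 over the 8 females. Trpv6 and Calb1 had r = -0.83 over the males, where LP males 4 and 5 held the highest Trpv6 (231 and 245 normalized counts) and the lowest Calb1 of their group (5012 and 5100), and r = 0.45 over the females. Inner medulla markers summed to 365 and 486 CPM in LP males 4 and 5, against 188 to 244 in the other LP males. Among NP males, NP male 3 had the lowest sum (138) and Trpv6 (22.4). NP male 5 had the highest sum (353) with Trpv6 at 52.4. The part of these markers in the r values was not tested.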
